A study of Homo sapiens with 6 samples.

Results

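The genes described here are 10 regulators of the Hippo pathway in human rhabdomyosarcoma cells: the kinases LATS1, LATS2, STK3 and STK4, the scaffold SAV1, the upstream regulators NF2 and WWC1, and the angiomotins AMOT, AMOTL1 and AMOTL2. They were taken from the table of gene counts by symbol, 10 of 58735 rows, and all 10 were among the 15935 genes tested after a filter on low counts. The cells were RD, an established line of embryonal rhabdomyosarcoma, a tumor of the skeletal muscle lineage. In 3 cultures the cells had been transduced with lentiviral particles carrying a scrambled shRNA, and in the other 3 with particles carrying shRNA against TAK1, the kinase encoded by MAP3K7. A single TAK1 shRNA sequence and a single cell line were sequenced, as poly(A)-enriched mRNA. Total counts were between 28839898 and 34469323 per culture.

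In the Hippo pathway, the MST kinases (STK4 and STK3), bound to the scaffold SAV1, phosphorylate the LATS kinases, and LATS kinases phosphorylate the transcriptional coactivators YAP and TAZ, which are then held in the cytoplasm or degraded. Merlin, the product of NF2, and KIBRA, the product of WWC1, promote LATS activation at the cell membrane, and angiomotins bind YAP and link it to actin and to cell junctions. In skeletal muscle, YAP activity is known to favor proliferation of myoblasts over differentiation, and several genes of the pathway, LATS2, AMOTL2 and NF2 among them, are known as targets of YAP and TEAD in other cells.

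The targeted gene was examined first. MAP3K7 stood at 77.9, 76.5 and 77.6 CPM (counts per 1000000 counts of the library, scaled by the trimmed mean of M-values) in the scrambled shRNA cultures and at 30.5, 33.6 and 29.9 CPM in the TAK1 shRNA cultures. Every TAK1 shRNA culture was below every scrambled shRNA culture, as the labels imply. The log2 fold change, written throughout as TAK1 shRNA minus scrambled shRNA, was -1.30 (SE 0.062, adjusted p = 4.45e-14 by the edgeR quasi-likelihood test, Benjamini-Hochberg adjusted over all genes tested).

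The same test was used to ask which of the 10 genes differed between the groups. A gene was called when its adjusted p was under 0.05 and its log2 fold change was at least 0.25 in size. AMOT, LATS2 and AMOTL1 were called lower in TAK1 shRNA cultures, 3 of 10 genes, against 11.3% of all genes tested. NF2 was called higher, 1 of 10 genes, against 11.8% of all genes. The remaining 6 genes, LATS1, STK3, STK4, SAV1, WWC1 and AMOTL2, were not called. The 2 groups did not overlap for 5 of the 10 genes, the 4 called genes and STK4, against 43.9% of all genes. The median log2 fold change of the 10 genes was -0.07, beside 0.02 over all genes. When library size alone set the scale, 1404 of all genes were called lower and 2376 higher, in place of 1805 and 1879, and the 4 Hippo genes kept their calls. RNA from bulk cultures cannot tell fewer cells of a kind apart from less RNA per cell.

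**Figure D1:**
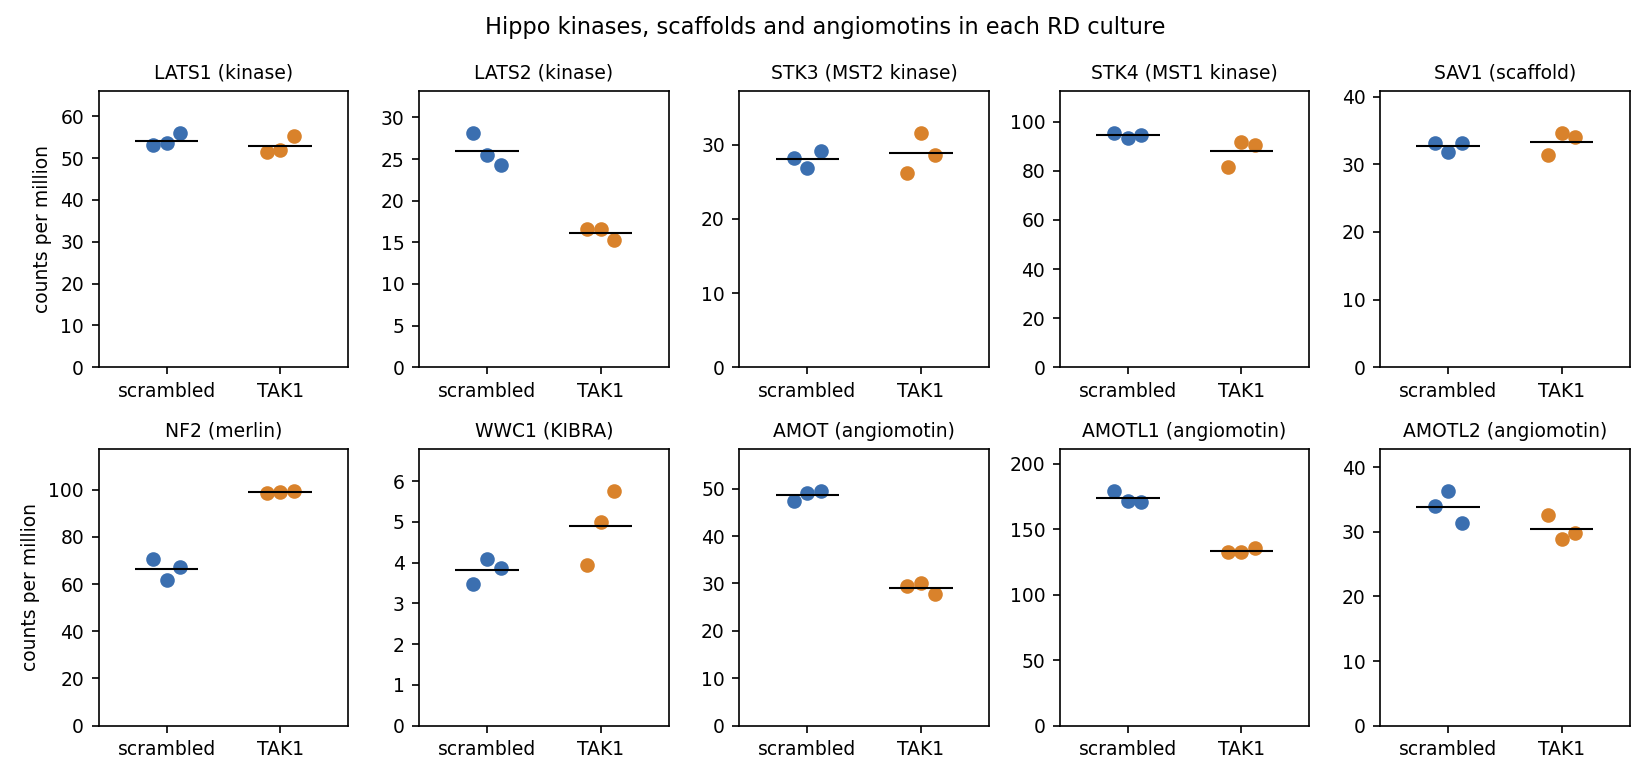
CPM (vertical axes, starting at 0) of the 10 genes in each of 3 scrambled shRNA (blue) and 3 TAK1 shRNA (orange) cultures, 1 point per culture, with the group mean as a line. AMOT, AMOTL1 and LATS2 lie lower and NF2 lies higher in all TAK1 shRNA cultures, and the points of LATS1, STK3, SAV1, AMOTL2 and WWC1 overlap between groups.

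At the top of the kinase cascade, the MST kinases and their scaffold showed little difference. STK4 (MST1; chr20:44966494-45080021, plus strand, GRCh38) had 95.5, 93.3 and 94.8 CPM in scrambled shRNA cultures and 81.6, 91.6 and 90.6 CPM in TAK1 shRNA cultures. The groups of STK4 did not overlap, but its log2 fold change of -0.10 (95% interval -0.21 to 0.01) did not pass the test (adjusted p = 0.148 by the edgeR quasi-likelihood test, Benjamini-Hochberg adjusted). Without the first TAK1 shRNA culture, the lowest of the 6, the log2 fold change of STK4 was -0.05. STK3 (MST2; chr8:98371228-98942827, minus strand) ranged from 26.8 to 29.2 CPM in scrambled shRNA cultures and from 26.2 to 31.6 CPM in TAK1 shRNA cultures, with a log2 fold change of 0.04 (95% interval -0.12 to 0.20). SAV1, the scaffold that joins MST to LATS (chr14:50632058-50668306, minus strand), ranged from 31.8 to 33.2 CPM and from 31.3 to 34.6 CPM, with a log2 fold change of 0.03 (95% interval -0.11 to 0.17). For STK3 and SAV1 the groups overlapped, and both intervals lie inside the threshold of 0.25 on either side of 0. Both estimates turned to the other sign when the second TAK1 shRNA culture was left out, to -0.03 and -0.00068, and neither was called in any fit. Of the SAV1 exon sequence, 31.9% is shared with exons of ATL1 on the opposite strand. Whether the counting used strand is not stated, so reads from these 2 genes may not be told apart. For the other 9 genes, at most 4.95% of the exon sequence is shared with another gene.

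The LATS kinases, which act on YAP and TAZ directly, gave 1 call between them. LATS1 (chr6:149658153-149718105, minus strand) had 53.0, 53.5 and 56.0 CPM in scrambled shRNA cultures and 51.5, 51.9 and 55.2 CPM in TAK1 shRNA cultures. The values of LATS1 overlapped, and its log2 fold change was -0.03 (95% interval -0.16 to 0.09), or 0.01 when library size alone set the scale. LATS2 (chr13:20973036-21061586, minus strand) had 28.2, 25.5 and 24.3 CPM in scrambled shRNA cultures and 16.5, 16.6 and 15.2 CPM in TAK1 shRNA cultures. Even the highest TAK1 shRNA culture was below the lowest scrambled shRNA culture. The level in TAK1 shRNA cultures was 0.621 times that in scrambled shRNA cultures (95% interval 0.552 to 0.699). LATS2 had a lower log2 fold change than all but 3.34% of the genes tested (adjusted p = 3.70e-07 by the edgeR quasi-likelihood test, Benjamini-Hochberg adjusted).

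Among the upstream regulators, NF2 was the gene called higher. NF2, which encodes the membrane-cytoskeleton linker merlin (chr22:29603556-29698598, plus strand), had 70.5, 61.8 and 67.4 CPM in scrambled shRNA cultures and 98.6, 98.9 and 99.4 CPM in TAK1 shRNA cultures. The TAK1 shRNA cultures lay close together and above every scrambled shRNA culture, with coefficients of variation of 0.393% and 6.62% in the 2 groups. The log2 fold change was 0.57 (SE 0.055), a level 1.49 times higher (95% interval 1.37 to 1.61; adjusted p = 1.13e-08 by the edgeR quasi-likelihood test, Benjamini-Hochberg adjusted). Among all genes tested, 93.1% had a lower log2 fold change than NF2.

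WWC1, which encodes KIBRA, a partner of merlin (chr5:168291645-168472303, plus strand), had the lowest counts of the 10 genes, with as few as 99 in a culture. Its values were 3.48, 4.10 and 3.86 CPM in scrambled shRNA cultures and 3.93, 5.01 and 5.76 CPM in TAK1 shRNA cultures. The first TAK1 shRNA culture fell among the scrambled shRNA cultures, so the groups overlapped. The log2 fold change of 0.36 had a wide interval (95% interval 0.03 to 0.70) and did not pass the test (adjusted p = 0.0903 by the edgeR quasi-likelihood test, Benjamini-Hochberg adjusted). Without that first TAK1 shRNA culture it was 0.49 and was called (adjusted p = 0.0242 in the edgeR quasi-likelihood test, Benjamini-Hochberg adjusted, where the adjusted p of WWC1 over all alternatives was between 0.0242 and 0.361). The statement on WWC1 therefore rests on 1 culture.

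Of the 3 angiomotins, scaffolds that bind YAP, 2 were called lower. AMOT (chrX:112774503-112840831, minus strand) had 47.4, 49.1 and 49.5 CPM in scrambled shRNA cultures and 29.4, 30.1 and 27.8 CPM in TAK1 shRNA cultures. The 2 groups of AMOT were far apart relative to their spread. The level in TAK1 shRNA cultures was 0.598 times that in scrambled shRNA cultures (95% interval 0.546 to 0.656; adjusted p = 2.05e-09 by the edgeR quasi-likelihood test, Benjamini-Hochberg adjusted). AMOTL1 (chr11:94706431-94876748, plus strand) had 179.1, 171.8 and 171.2 CPM in scrambled shRNA cultures and 133.0, 132.4 and 136.0 CPM in TAK1 shRNA cultures. AMOTL1 also fell without overlap, by a smaller factor, to 0.769 times (95% interval 0.720 to 0.822; adjusted p = 5.11e-07 by the edgeR quasi-likelihood test, Benjamini-Hochberg adjusted). AMOTL2 (chr3:134355347-134375479, minus strand) had 33.97, 36.3 and 31.4 CPM in scrambled shRNA cultures and 32.6, 28.8 and 29.9 CPM in TAK1 shRNA cultures. The values of AMOTL2 overlapped, and its log2 fold change of -0.16 (95% interval -0.31 to -0.0042) did not pass the test (adjusted p = 0.110 by the edgeR quasi-likelihood test, Benjamini-Hochberg adjusted). Without the first TAK1 shRNA culture AMOTL2 had an adjusted p of 0.0398 by the edgeR quasi-likelihood test, Benjamini-Hochberg adjusted (0.0398 to 0.426 over all alternatives), with a log2 fold change of -0.21 that stayed short of the threshold of 0.25. All 3 angiomotins had a log2 fold change below 0 under every scaling tried.

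**Figure D2:**
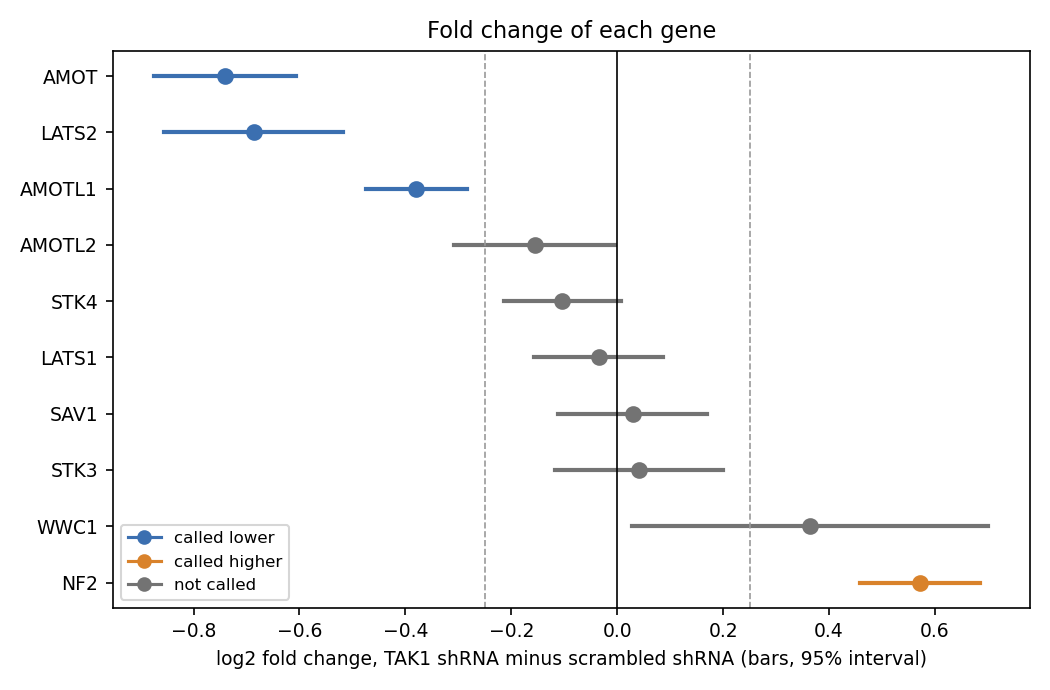
Log2 fold change (horizontal axis, TAK1 shRNA minus scrambled shRNA) of the 10 genes with its 95% interval as a bar, from 3 cultures per group; dashed lines mark the threshold of 0.25 on each side. AMOT, LATS2 and AMOTL1 are called lower (blue) and NF2 higher (orange), and the 6 grey genes were not called.

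Promoter sequences from RefSeq (GRCh38.p14, 250 bases before to 50 after the annotated start) matched 9 of the 10 genes. For 7 of them the RefSeq start was within 18 bases of the outer end of the GENCODE gene printed above. For AMOTL2 it lay 1032 bases and for AMOTL1 61925 bases inside that gene. A single start per gene was used, so other starts were not searched for any of the 9 genes. The sequences were searched on both strands for letters that several transcription factors are known to bind. Shown are the stretches from 75 bases before to 25 after the start of the 2 genes that fell most (LATS2 and AMOT), the gene that rose (NF2), and an angiomotin that was not called (AMOTL2). Capitals mark GGAATG, bound by TEAD factors, and TTCCCGC, bound by E2F factors, on either strand. The stretches are chr13:21061562-21061661 on the minus strand, chrX:112840807-112840906 on the minus strand, chr22:29603481-29603580 on the plus strand and chr3:134374423-134374522 on the minus strand.
LATS2: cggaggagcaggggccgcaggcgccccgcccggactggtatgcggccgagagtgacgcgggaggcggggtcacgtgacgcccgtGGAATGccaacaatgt
AMOT: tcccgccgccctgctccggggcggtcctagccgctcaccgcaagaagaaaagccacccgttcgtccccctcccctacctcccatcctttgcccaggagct
NF2: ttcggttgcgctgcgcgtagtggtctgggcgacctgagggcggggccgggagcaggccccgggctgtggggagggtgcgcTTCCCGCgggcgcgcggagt
AMOTL2: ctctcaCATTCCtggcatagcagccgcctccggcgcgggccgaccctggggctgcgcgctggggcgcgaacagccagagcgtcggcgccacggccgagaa
The TEAD letters GGAATG occurred in the whole sequences of 2 of the 9 genes, LATS2 and AMOTL2, and in 14% of all 35116 promoters. Of these 2 genes, LATS2 was called lower and AMOTL2 was not called, though the log2 fold change of AMOTL2 was also below 0 (-0.16). Whether these letters bear on the change of LATS2 or AMOTL2 was not tested. The E2F letters TTCCCGC occurred in NF2, with 2 matches, and in 6.55% of all promoters. AP-1 letters (TGANTCA) occurred in LATS1 and in 7.71% of all promoters. GGGCGG, bound by SP1, occurred in 8 of the 9 genes and in 45% of all promoters. The NF-kB motif, the CArG box of SRF and the E-box CAGCTG matched 0 of the 9 genes, beside 11.3%, 1.29% and 17.9% of all promoters. A match describes the letters in the sequence and not binding in these cells.

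To compare the genes with each other, CPM was divided by the length in kilobases of all annotated exons of each gene. In scrambled shRNA cultures AMOTL1 had the highest level, 17.3 ± 0.44 CPM per kilobase (SD, n = 3), followed by NF2 with 9.01 ± 0.60 and LATS1 with 6.38 ± 0.19. SAV1 (5.83 ± 0.14), AMOT (5.71 ± 0.13) and STK4 (5.71 ± 0.069 CPM per kilobase) formed a middle group, in which neighbors overlapped. AMOTL2 (5.23 ± 0.38) overlapped LATS2 (4.63 ± 0.36), and STK3 (2.23 ± 0.094) and WWC1 (0.378 ± 0.031 CPM per kilobase) were lowest. In TAK1 shRNA cultures the order changed at the top, where NF2 (13.4 ± 0.053) and AMOTL1 (13.3 ± 0.20 CPM per kilobase) overlapped. LATS1 (6.23 ± 0.24) overlapped SAV1 (5.95 ± 0.32), and STK4 (5.31 ± 0.33) overlapped AMOTL2 (4.70 ± 0.30). AMOT moved from the fifth place to the seventh, with 3.42 ± 0.14 CPM per kilobase. Below it were LATS2 (2.88 ± 0.14), STK3 (2.29 ± 0.21) and WWC1 (0.486 ± 0.091). The order depends on the length used. Per kilobase of coding sequence, STK4 was highest in both groups, with 64.7 ± 0.79 and 60.2 ± 3.8 CPM per kilobase.

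Within each family, these levels were turned into shares. LATS1 made up 55.4%, 58.1% and 60.4% of the summed LATS level per kilobase in scrambled shRNA cultures and 67.3%, 67.4% and 70.5% in TAK1 shRNA cultures. The LATS sum was 11.01 ± 0.22 CPM per kilobase in scrambled and 9.10 ± 0.10 in TAK1 shRNA cultures (SD, n = 3), so the pool was smaller and made up more of LATS1. STK4 made up 71.9 ± 0.70% of the MST level in scrambled shRNA cultures and 69.9 ± 0.98% in TAK1 shRNA cultures. The MST sum, at 7.93 ± 0.15 and 7.59 ± 0.53 CPM per kilobase, overlapped between groups. Among the angiomotins, AMOTL1 kept the largest share, 61.3 ± 1.1% and 62.2 ± 1.2%. The share of AMOT was 20.2 ± 0.78% in scrambled and 15.9 ± 0.74% in TAK1 shRNA cultures, and that of AMOTL2 was 18.5 ± 1.1% and 21.9 ± 1.1%. AMOT and AMOTL2 overlapped in their shares in scrambled shRNA cultures, and AMOTL2 had the larger share in every TAK1 shRNA culture. With the longest transcript as the length, AMOTL2 had the larger mean share in scrambled shRNA cultures too (21.2% against 19.5%). The summed angiomotin level was 28.3 ± 0.51 CPM per kilobase in scrambled and 21.5 ± 0.29 in TAK1 shRNA cultures.

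**Figure D3:**
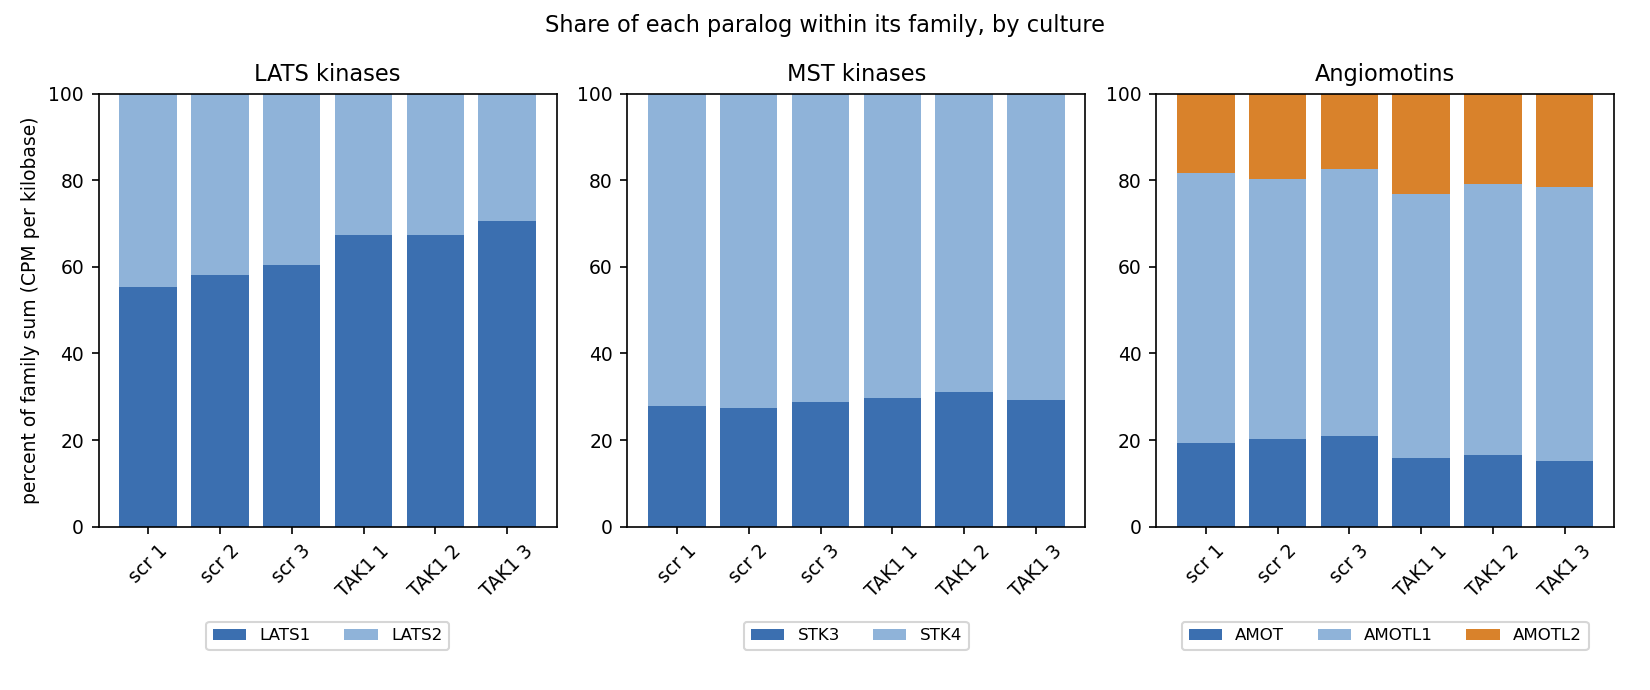
Share in percent (vertical axis) of each paralog in the summed CPM per kilobase of its family, with 1 bar per culture: 3 scrambled (scr) and 3 TAK1 shRNA cultures. The LATS1 share is above 67% in each TAK1 shRNA culture and between 55.4% and 60.4% in scrambled shRNA cultures, while AMOTL1 holds over 60% of the angiomotin level in all 6 cultures.

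Log2 ratios of CPM between paralogs, not scaled by length, were compared by a two-sided exact permutation test over cultures. Gene length cancels in the difference between groups, but not in the ratios themselves. The log2 ratio of LATS2 to LATS1 was -0.91, -1.07 and -1.21 in scrambled shRNA cultures and -1.64, -1.64 and -1.86 in TAK1 shRNA cultures. The ratio was lower in every TAK1 shRNA culture, by 0.65 log2 units on average. The log2 ratio of AMOT to AMOTL2 had a mean of 0.52 ± 0.12 in scrambled and -0.06 ± 0.11 in TAK1 shRNA cultures (SD, n = 3). The log2 ratio of AMOT to AMOTL1 was -1.84 ± 0.070 and -2.20 ± 0.081, and that of AMOTL1 to AMOTL2 was 2.36 ± 0.11 and 2.14 ± 0.096. The log2 ratio of STK3 to STK4 was -1.75 ± 0.050 and -1.61 ± 0.067, although neither MST gene was called by itself. For all 5 ratios the groups did not overlap and the exact permutation p was 0.1, also after Benjamini-Hochberg adjustment, the smallest p that 3 cultures against 3 can give. Groups did not overlap for 43.9% of all single genes, and the share among ratios of other gene pairs was not computed. The angiomotin ratios are not separate results. The log2 ratio of AMOT to AMOTL2 is the sum of those of AMOT to AMOTL1 and AMOTL1 to AMOTL2. With cultures paired by number, the exact permutation p (sign flips over 3 pairs) was 0.25 for each ratio, the smallest p that design can give.

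Other genes of the pathway were counted in 9 lists. Over all lists, 26 of the 110 genes tested were called lower (23.6%) and 17 higher (15.5%), beside 11.3% and 11.8% of all genes. The median log2 fold change was -0.06, beside 0.02 over all genes. With library size alone as the scale, 20 of the 110 list genes were called lower and 19 higher, beside 1404 and 2376 of all 15935 genes. The same shares of all genes apply to the counts of each list. Among partners of LATS, MST and merlin, 2 of 5 genes tested were called lower (median -0.12), and 0 higher by edgeR, DESeq2 or limma voom or at an unadjusted p under 0.05. They were MOB1B, a coactivator of LATS, which had a log2 fold change of -0.52 (SE 0.067), and FRMD6, a relative of merlin, with -0.60 (SE 0.062). The paralog MOB1A was not called (0.05, SE 0.046). Thus, for LATS as for MOB1, 1 of 2 paralogs was called lower; the difference between MOB1A and MOB1B was not tested.

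Kinases that act upstream of or beside MST moved in both directions. Of 12 genes tested, 3 were called lower and 6 higher, with a median of 0.22. The 3 lower kinases were MAP4K4 (-0.34, SE 0.042), STK38 (-0.33, SE 0.064) and TAOK1 (-0.29, SE 0.052). The 4 higher kinases with the largest log2 fold changes were MAP4K1 (0.80, SE 0.28, at 1.01 ± 0.15 CPM in scrambled shRNA cultures), TAOK2 (0.35, SE 0.051), TNIK (0.34, SE 0.055) and STK38L (0.34, SE 0.075). TAO and MAP4K kinases are known to phosphorylate LATS or MST, and STK38 and STK38L (NDR1 and NDR2) are relatives of LATS. The NDR pair was thus called in opposite directions.

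STRIPAK is a phosphatase complex that removes phosphate from MST kinases. Of its 18 genes tested, 5 were called lower (median -0.12). None was called higher by edgeR, DESeq2 or limma voom, and 3 were higher at an unadjusted p under 0.05. PPP2CA (-0.88, SE 0.059) and PPP2CB (-0.65, SE 0.061) encode the catalytic subunits of the phosphatase, PDCD10 (-0.42, SE 0.088) an adaptor, and STRN (-0.40, SE 0.057) a striatin scaffold. PPP2CA stood at 117.4, 116.7 and 116.1 CPM in scrambled shRNA cultures and at 57.6, 62.5 and 69.4 CPM in TAK1 shRNA cultures. Both catalytic subunits were thus called lower, with lower mRNA in every TAK1 shRNA culture. STK3 and STK4 were not called, though STK4 was also lower in every TAK1 shRNA culture. In the RASSF family, whose members bind MST through a SARAH domain, 2 of 5 genes were called higher (median 0.02), RASSF3 (0.43, SE 0.057) and RASSF4 (0.35, SE 0.051). None was called lower by edgeR, DESeq2 or limma voom, and 1 was lower at an unadjusted p under 0.05.

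Of 12 enzymes tested that act on the stability of LATS or angiomotins, 3 were called lower (median -0.02). None was called higher by the 3 tools, and 1 was higher at an unadjusted p under 0.05. It was NEDD4L (0.20, adjusted p = 0.00433 by the edgeR quasi-likelihood test, Benjamini-Hochberg adjusted), which missed only the fold threshold. The lower genes were the ubiquitin ligases SIAH2 (-0.29, SE 0.074), NEDD4 (-0.28, SE 0.076) and ITCH (-0.27, SE 0.048), all near the threshold of 0.25. Among 10 genes tested for YAP degradation and 14-3-3 binding, 3 were called lower (median -0.09) and 0 higher by edgeR, DESeq2 or limma voom or at an unadjusted p under 0.05. They were the 14-3-3 genes YWHAH (-0.52, SE 0.051) and YWHAZ (-0.29, SE 0.042), whose products hold phosphorylated YAP in the cytoplasm, and BTRC (-0.27, SE 0.058), which encodes a ubiquitin ligase subunit.

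At the level of the transcription complex, 2 of 9 genes tested were called lower and 2 higher (median 0.09). The lower pair was YAP1 and WWTR1, which encode YAP and TAZ. The higher pair was VGLL3 (0.48, SE 0.052) and VGLL2 (0.38, SE 0.046), cofactors that also bind TEAD. TEAD1 to TEAD4 were not called. TEAD1 was lower in every TAK1 shRNA culture (-0.18, adjusted p = 0.00324) and missed only the fold threshold. VGLL4 was higher in every TAK1 shRNA culture (0.22, adjusted p = 0.00689) and missed only that threshold too. Both adjusted p are from the edgeR quasi-likelihood test, Benjamini-Hochberg adjusted. Among known YAP and TAZ targets outside the 10 genes, 6 of 20 were called lower and 4 higher (median -0.12), so the list did not move as one. The lower targets with the largest changes were TGFBR2 (-1.02, SE 0.049), CTGF, NT5E (-0.75, SE 0.074) and CRIM1 (-0.73, SE 0.051). The higher targets were DLC1 (0.48, SE 0.10), ARHGEF17 (0.44, SE 0.056), IGFBP3 (0.35, SE 0.080) and FJX1 (0.31, SE 0.064).

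Among genes for polarity and cell junctions, which feed into the pathway at the membrane, 2 of 22 were called lower (9.09%, near the 11.3% of all genes) and 4 higher (18.2%; median 0.02). The lower genes were DCHS1 (-0.53, SE 0.049), a protocadherin that binds FAT4, and CTNNA1 (-0.31, SE 0.046), which encodes alpha-catenin. The higher genes were LIN7B (0.65, SE 0.17), WTIP (0.33, SE 0.11), FJX1 and LLGL1 (0.27, SE 0.060). Most genes of this list, 16 of 22, were not called, TJP1 and SCRIB among them. With called genes included, 7 of the 22 were lower and 8 higher at an unadjusted p under 0.05 by the edgeR quasi-likelihood test. MPP5 (-0.23), DLG5 (-0.22), DLG1 (-0.17), AJUBA (0.22) and PTPN14 (0.15) passed the adjusted p threshold of that test and missed only the fold threshold.

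**Figure D4:**
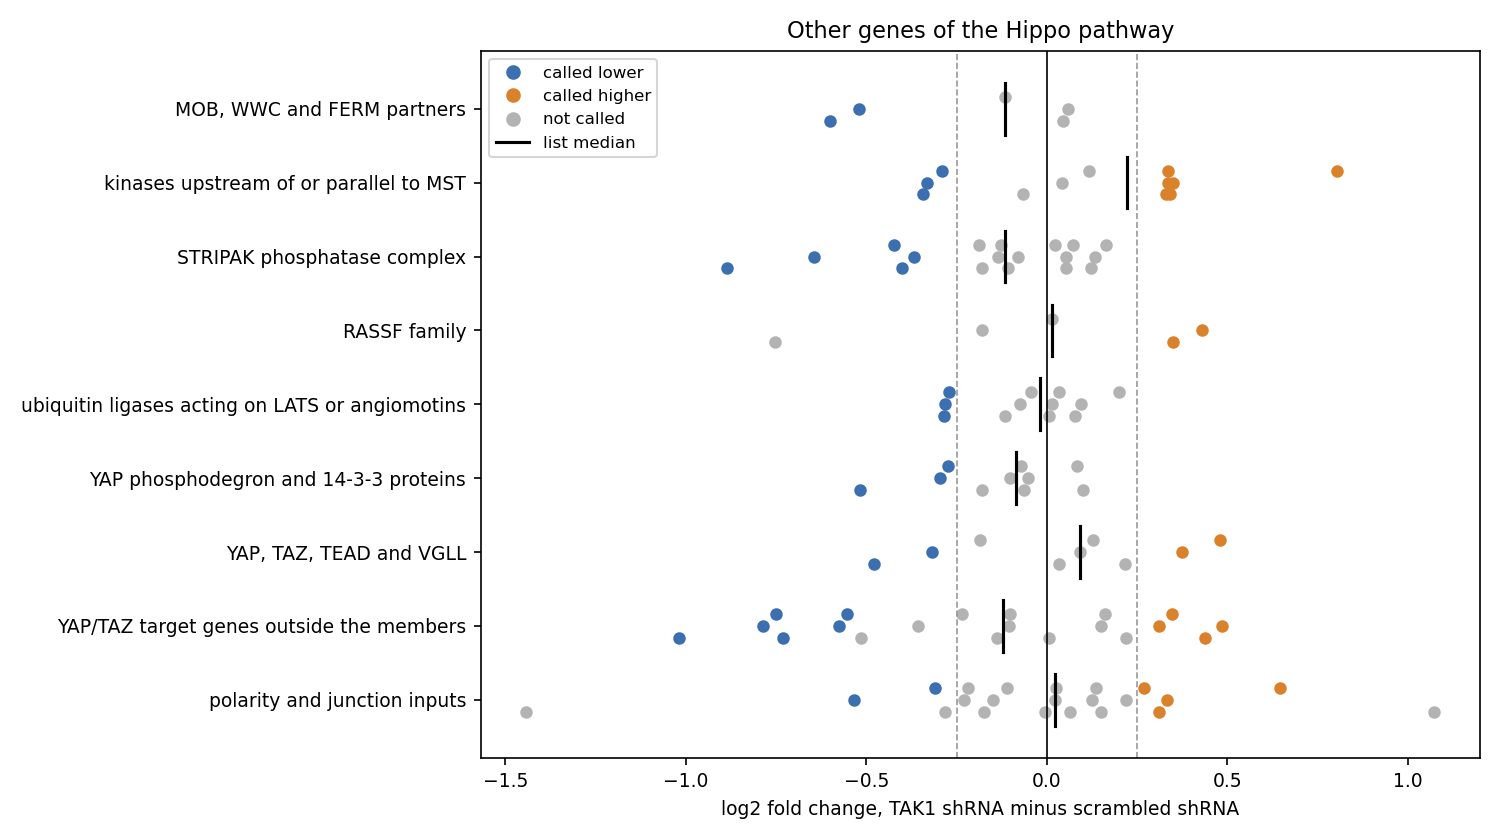
Log2 fold change (horizontal axis, TAK1 shRNA minus scrambled shRNA) of each tested gene in 9 lists of Hippo pathway genes, 1 point per gene, blue where called lower, orange where called higher and grey where not called, with the list median as a black line and the threshold of 0.25 dashed. The upstream kinases have the highest median, 0.22, and the YAP and TAZ targets spread on both sides of 0.

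Genes outside the 10 with the most similar profile were found by the root mean square difference of centered log2 CPM over the 6 cultures, among 9711 genes averaging 10 CPM or more. For AMOT these were NRBF2 (difference 0.027), PPME1 (0.037) and SKP2 (0.037). For LATS2 they were FARP2 (0.047), BAG3 (0.049) and TNFRSF1A (0.051).

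Markers of cell types were read as a check on the cultures. Of 13 myogenic and rhabdomyosarcoma markers, 11 were tested. MYMK (log2 fold change 0.98), MYOD1 (0.37) and MYOG (0.27) were called higher and CHRNA1 (-0.40) lower. The summed level of the 13 was 2781, 2797 and 2804 CPM in scrambled and 2832, 2751 and 2691 CPM in TAK1 shRNA cultures, with CHRNA1 the most abundant and MYF5 at 0 in every culture. The hematopoietic markers named here were below the filter on low counts, with CD3E at 0 in every culture and at most 3 counts of PTPRC, 11 of SPI1 and 14 of CD14 in a culture. The 5 endothelial markers summed to 2.99, 3.65 and 2.98 CPM in scrambled and 1.78, 2.75 and 2.30 CPM in TAK1 shRNA cultures. Nearly all of this was TEK, the 1 marker tested and not called (log2 fold change -0.49), while CDH5 and KDR were at 0. Markers of the muscle lineage were thus abundant beside those of blood and endothelium. Of 6 epithelial markers, 2 were tested and 1 was called lower, KRT18, which accounted for most of a sum of 61.1, 56.9 and 63.0 CPM in scrambled and 27.7, 29.6 and 31.2 CPM in TAK1 shRNA cultures, while CDH1 and KRT19 were at 0 in all. Of 5 neural markers, 2 were tested and 1 was called higher, MAP2, which made up most of a sum of 181.8, 179.5 and 185.3 CPM in scrambled and 227.1, 235.5 and 241.4 CPM in TAK1 shRNA cultures, with SOX2 at 0. The 5 fibroblast markers, led by COL1A1, summed to between 583.2 and 679.6 CPM. None of them was called by edgeR, DESeq2 or limma voom, and 1 was higher at an unadjusted p under 0.05. The mitochondrial share of counts also moved with the group, from 0.991%, 1.08% and 1.13% in scrambled to 1.24%, 1.22% and 1.33% in TAK1 shRNA cultures. The part of these differences in the results for the Hippo genes was not tested.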

How the data were processed

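Counts of reads per gene were deposited by the authors as raw counts without normalization. They were made from poly(A)-enriched mRNA libraries by CASAVA base calling, trimming of adaptors, removal of poor reads and mapping by STAR on GRCh38, with no versions given. The counter, annotation release and strand use are not stated in the sources used here. Replicates are described as triplicate cultures; p-values measure the spread between these 6 samples of 1 cell line and 1 shRNA.

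Genes were filtered by filterByExpr, scaled by the trimmed mean of M-values and tested by the quasi-likelihood test of edgeR 4.0.16 in R 4.3.3, with Benjamini-Hochberg adjustment over 15935 genes. The biological coefficient of variation was 5.67%. Standard errors are the log2 fold change over the square root of F. Intervals cover the model error at 95%. The fits were checked on simulated data, and the bound for passing was lowered after the DESeq2 outcome was seen. Ratios and shares were computed with Python 3.11.15, numpy 2.4.6, pandas 2.3.3 and scipy 1.17.1, and figures drawn with matplotlib 3.10.9. Exon lengths and positions came from GENCODE release 44, and promoter sequences from RefSeq.

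Alternatives were DESeq2 1.42.0, limma voom (limma 3.58.1), other scalings and filters, other fold thresholds and gene lengths, a replicate block and leaving out each culture. Deviations from the group means of same-numbered cultures correlated with r of 0.366, 0.154 and 0.129 across genes with at least 10 CPM. The third scrambled culture correlated more closely with the second TAK1 shRNA culture (0.265). The labels do not say that a number marks a shared batch. Cultures were paired by number only in the replicate block and the paired test of the ratios, and the main fit was unpaired.

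All 10 genes and MAP3K7 are named. In each list every called gene is named where a direction held 4 or fewer, otherwise the 4 with the largest changes among called genes without overlap; MOB1A, PPP2CA values by culture and the uncalled genes named in the lists were chosen after their values were seen, as were the motifs. The members and lists were chosen with earlier results of these data known, and 3 of the 10 genes (AMOT, AMOTL1 and LATS2) are also plotted by the study from these samples, so their direction is not independent evidence. One of the cell type markers is not reported here.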

Additional observations from a re-analysis of the deposited data

How the results depend on the processing

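AMOT, LATS2, AMOTL1 and NF2 were called in the same direction under each of the 14 refits (DESeq2, limma voom, other scalings and filters, the replicate block, and leaving out each culture). With the replicate block, which pairs same-numbered cultures, the log2 fold changes in the same order were -0.74, -0.68, -0.38 and 0.57. In that fit 3 Hippo genes were lower and 1 higher, and no call of the 10 genes changed. LATS1 turned to 0.0134 with library size alone. Without 1 culture, log2 fold changes were between -0.77 and -0.72 for AMOT, -0.73 and -0.63 for LATS2, -0.40 and -0.36 for AMOTL1, 0.52 and 0.61 for NF2, -0.0324 and 0.104 for STK3, -0.000675 and 0.0717 for SAV1, 0.22 and 0.49 for WWC1, -0.21 and -0.10 for AMOTL2, -0.14 and -0.05 for STK4, and -0.08 and -0.01 for LATS1, and 1 to 2 Hippo genes were called higher. With a fold threshold of 0.5, which calls fewer genes by construction, 12 list genes were lower and 2 higher. At that threshold 2 Hippo genes were lower, AMOTL1 losing its call. The shares of all genes called at 0.5 are not given here, so these counts are not read as a lean to either direction. With the longest transcript or the coding length, the scrambled shRNA share was 59.2% or 67.3% for AMOTL1, 61.1% or 66.8% for LATS1 and 69.0% or 77.3% for STK4. The shifts follow the lengths entered. WWC1 had the lowest counts, from 99 per culture, and a coefficient of variation of 18.7% in TAK1 shRNA cultures; the cause of its change and of those near 0 was not tested. The alternatives for the lists, MAP3K7 and the ratios, the paired test included, were chosen after seeing the data. The 5 ratios kept their direction without any 1 culture. For AMOTL1 to AMOTL2 the exact permutation p was 0.2 without any 1 TAK1 shRNA culture. For STK3 to STK4 the exact permutation p was 0.2 without the second culture of either group. A single shRNA was sequenced, so effects of TAK1 loss and of this shRNA sequence cannot be told apart.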
